A study of Mus musculus with 10 samples.

Results

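The genes described here are 9 members of the LY6/uPAR domain family, chosen by name as small surface and secreted proteins of squamous epithelium: Psca, Ly6d, Ly6a, Ly6e, Ly6k, Ly6g6c, Lypd2, Lypd3 and Slurp1. All 9 were found among the 22740 protein-coding genes of the deposited table, and 8 passed the filter on low counts. RNA was measured in 5 oesophagus samples labelled Grhl3 KO and 5 labelled wild type, all of them from C57BL/6 mice. Mice of both groups had been treated with 4-NQO (4-nitroquinoline 1-oxide), a carcinogen that damages DNA and induces squamous tumours. The labels call the Grhl3 KO tissue oesophageal tumour and the wild-type tissue oesophageal tissue, while the series' design text speaks of tumours for both, so genotype and tissue label cannot be told apart. The series title speaks of a conditional knockout. The column names of the Grhl3 KO libraries contain L2 followed by Cre, the recombinase used to delete genes. Beyond these names, no source used here gives the promoter that drives Cre, the age of the mice or whether any were pooled.

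Proteins of this family share a compact fold of finger-like loops held together by disulphide bonds. Most are tethered to the outer face of the cell membrane by a glycosylphosphatidylinositol (GPI) anchor, and a few, among them SLURP1, are secreted. In stratified epithelia several of them mark the suprabasal layers, where keratinocytes differentiate. GRHL3 belongs to the grainyhead-like transcription factors, which act in the formation of epithelial barriers.

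Each library held between 15.3 and 32.9 M counts, with M the SI prefix mega. Levels are given as CPM, counts per M scaled by TMM (trimmed mean of M-values) library factors. Keratins of the oesophageal lining were abundant in every library: Krt5 of the basal layer stood at 7418 to 12245 CPM in Grhl3 KO, against 9797 to 13382 CPM in wild type, and Krt13 of the suprabasal layers at 8366 to 20771 CPM in Grhl3 KO, against 4958 to 43057 CPM in wild type. The targeted gene, Grhl3, averaged 222 CPM in libraries labelled Grhl3 KO, against 207 CPM in wild type, so gene-level counts do not show a loss; reads from any exon of the gene are counted together. Y-linked genes summed to 162 to 203 CPM in Grhl3 KO, against 0.0527 to 177 CPM in wild type, so all libraries short of them were wild type. Wild-type libraries 1528 and 1555 held almost no Y-linked RNA and library 1561 an intermediate amount. The sample numbers of these 3 libraries also lie apart from those of the other 7, so the fold changes of the members without them are given as well.

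Of the 9 genes, 7 lie within 283.2 kb on chromosome 15 (74714839 to 74998031, GRCm38), in the order Psca, Slurp1, Lypd2, Ly6d, Ly6k, Ly6e and Ly6a. Psca and Slurp1 are 7.25 kb apart and Slurp1 and Lypd2 4.21 kb, while the gap between Ly6k and Ly6e is 155 kb. Lypd3 lies on chromosome 7 (24636550 to 24641118) and Ly6g6c on chromosome 17 (35065388 to 35070050).

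Promoter sequences were matched for 2 of the 9 genes, Lypd3 and Ly6g6c, in RefSeq (GRCm38.p6). They are printed because no other member was matched there. Each runs from 250 bases before the gene's RefSeq start to 50 after it, on the plus strand, at chr17:35067075-35067374 for Ly6g6c and chr7:24636320-24636619 for Lypd3. The RefSeq start of Ly6g6c, 35067325, is also that of a GENCODE transcript and lies 1.94 kb inside the GENCODE gene, since another transcript starts further upstream, and that of Lypd3 lies 20 bases inside. Capitals mark TATAAA.
Ly6g6c: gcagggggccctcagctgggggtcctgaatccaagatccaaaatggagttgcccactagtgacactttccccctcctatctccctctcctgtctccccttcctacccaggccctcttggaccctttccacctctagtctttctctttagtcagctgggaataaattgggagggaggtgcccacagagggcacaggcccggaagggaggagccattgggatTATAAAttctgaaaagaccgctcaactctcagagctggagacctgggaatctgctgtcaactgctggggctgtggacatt
Lypd3: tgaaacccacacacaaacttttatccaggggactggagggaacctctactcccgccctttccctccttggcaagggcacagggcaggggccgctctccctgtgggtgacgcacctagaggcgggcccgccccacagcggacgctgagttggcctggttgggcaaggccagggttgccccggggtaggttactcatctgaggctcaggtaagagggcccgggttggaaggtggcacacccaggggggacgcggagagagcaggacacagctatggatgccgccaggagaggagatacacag

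Of 3 motifs searched on both strands, TATAAA occurred once in the Ly6g6c window, with its first base 30 bases before the RefSeq start, and was not in the Lypd3 window. It was present in 13.6% of all 32851 promoter windows of the same length. Neither window held the grainyhead-like motif AACCGGTT, present in 0.146% of all windows, or the AP-1 motif TGANTCA, present in 7.81%. As TATAAA in the Ly6g6c window was the only match, no overlap between motifs could occur.

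Per length of annotated exons, Ly6d was the most abundant member and Lypd2 the least. Ly6d, an antigen of differentiating keratinocytes, averaged 1642 ± 319 CPM per kb in Grhl3 KO and 2067 ± 1123 CPM per kb in wild type (SD, n = 5 each), and it ranked first of the 9 in all 10 libraries. Lypd3 averaged 558 ± 91.9 CPM per kb in Grhl3 KO and 621 ± 158 in wild type, and Ly6a 442 ± 139 CPM per kb in Grhl3 KO and 367 ± 120.4 in wild type. Ly6g6c, at 314 ± 108 in Grhl3 KO and 302 ± 216 CPM per kb in wild type, came next. Ly6e had 115 ± 43.8 CPM per kb in Grhl3 KO and 102 ± 23.2 in wild type.

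The order was not equally firm along its length. Ly6d lay above Lypd3 in 10 of 10 libraries with no overlap of their ranges, whereas Lypd3 lay above Ly6a in 9 of 10 and Ly6a above Ly6g6c in 7 of 10, and the mean differences of these last 2 pairs were smaller than their SD between libraries. The mean difference was also smaller than its SD for Ly6e over Psca, Psca over Ly6k and Ly6k over Slurp1. Ly6e exceeded Psca in 8 of 10 libraries. The exceptions were wild-type libraries 1048 and 1555, where Psca had 120.4 and 197 CPM per kb and Ly6e 102 and 81.5. Psca averaged 22.2 ± 8.56 CPM per kb in Grhl3 KO and 103 ± 62.3 in wild type. Ly6k had 9.78 ± 5.25 CPM per kb in Grhl3 KO and 14.1 ± 12.5 in wild type, and Slurp1, whose annotation includes a long transcript that lowers its value per length, 7.62 ± 4.16 in Grhl3 KO and 4.86 ± 3.21 in wild type.

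**Figure D1:**
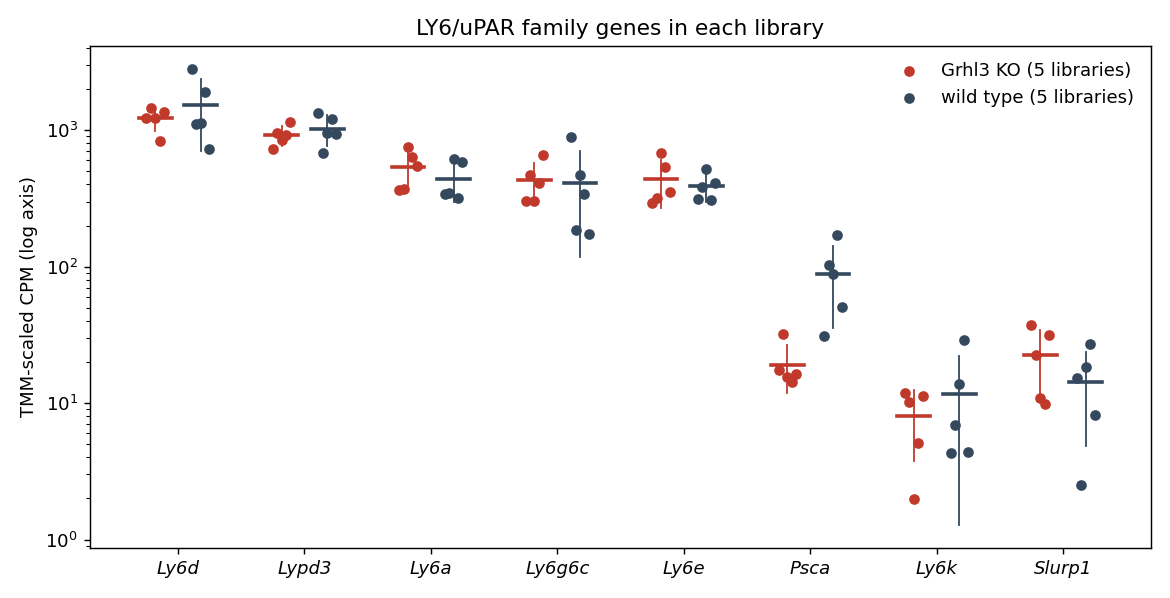
TMM-scaled CPM (log axis) of the 8 tested genes, each point 1 library, with the mean (horizontal line) and SD (vertical line) of 5 Grhl3 KO libraries and 5 wild-type libraries. Psca stands at 14.2 to 32.1 CPM in Grhl3 KO, against 31.2 to 169 CPM in wild type, and the points of the other genes overlap widely.

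Between genotypes, Psca was the member with the largest difference. Psca encodes prostate stem cell antigen, a GPI-anchored protein of epithelial surfaces. The Grhl3 KO libraries 1026, 1027, 1035, 1036 and 1043 had 17.4, 32.1, 15.7, 14.2 and 16.3 CPM, and the wild-type libraries 1028, 1048, 1528, 1555 and 1561 had 31.2, 104, 89.0, 169 and 51.0 CPM. The groups met at a single point, Grhl3 KO library 1027 being just above wild-type library 1028, and every other Grhl3 KO library lay below every wild-type library. The raw counts behind these values ran from 273 to 1004 in Grhl3 KO, against 661 to 3144 in wild type.

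The fitted level of Psca was 4.63-fold lower in Grhl3 KO (95% limits 2.43 to 8.82), a log2 fold change of −2.21 (SE 0.42). In edgeR's quasi-likelihood test, adjusted over 13731 genes by the Benjamini-Hochberg method, this missed the threshold of 0.05 (unadjusted p = 0.000284, adjusted p = 0.146). It ranked 26 by p among all genes tested. DESeq2, tried as an alternative, called Psca lower (log2 fold change −2.22, adjusted p = 1.82e-05). That tool called 119 genes, 0.868% of those it tested, where edgeR called 11 (0.0801%) and limma voom 1 (0.00728%). Over all alternatives the log2 fold change of Psca ran from −2.49 to −1.81 and its adjusted p, DESeq2 aside, from 0.0537 to 0.679.

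Without wild-type libraries 1528, 1555 and 1561, the remaining 5 Grhl3 KO and 2 wild-type libraries gave a log2 fold change of −1.81 for Psca (edgeR adjusted p = 0.586). With the mean level of pan-epithelial genes as a covariate it was −1.97, and with that of suprabasal genes −2.22 (edgeR adjusted p = 0.183 and 0.0731). With the mean level of glandular or of basal epithelial genes, chosen after seeing the data, it was −2.19 or −2.13 (edgeR adjusted p = 0.285 and 0.246). In whole tissue, fewer cells that make an RNA and less of it per cell cannot be told apart.

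**Figure D2:**
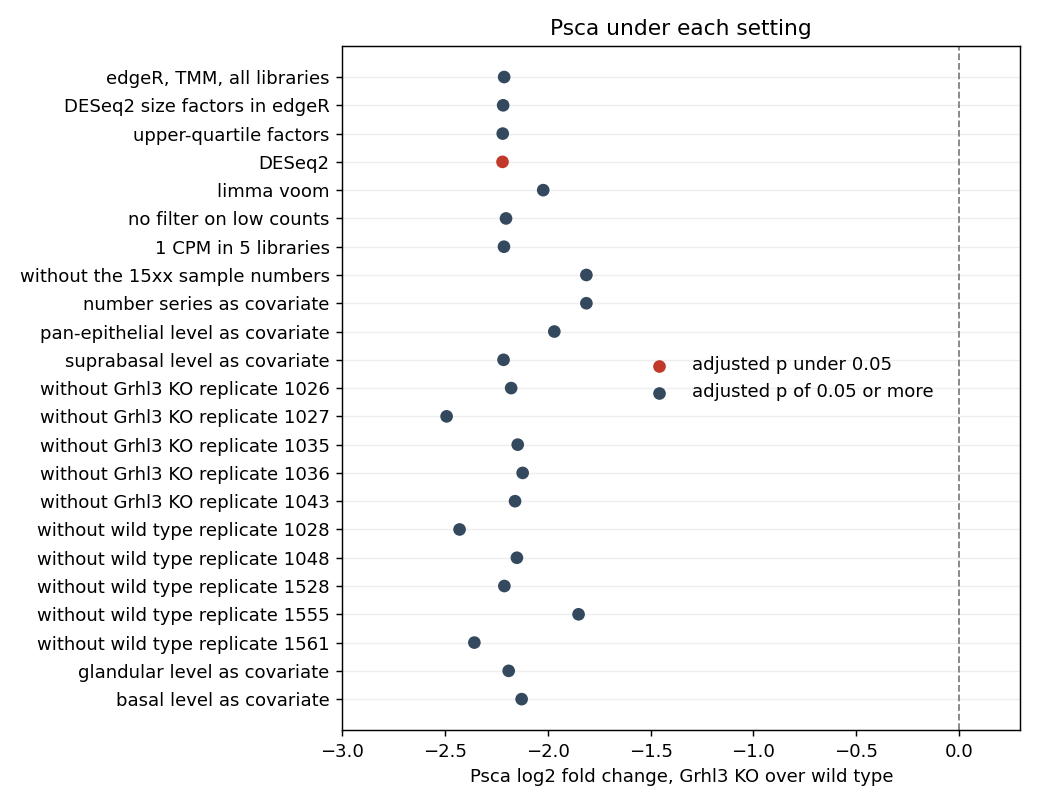
Log2 fold change of Psca, Grhl3 KO over wild type (x axis), in the fit with all libraries and under each alternative (rows); colour shows whether the adjusted p was under 0.05. Every value lies between −2.49 and −1.81, and DESeq2 alone passed the threshold.

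None of the 8 tested members passed in edgeR, and 1, Psca, which was lower, was under 0.05 before adjustment. Of all genes 7.16% were, 3.72% of them lower in Grhl3 KO and 3.44% higher. The fitted level was higher in Grhl3 KO for 4 members and lower for 4, where 50.3% of all genes were lower. The median log2 fold change of the 8 was −0.05, beside −0.00 for all genes. No member separated the groups without overlap, as 1.35% of all genes did. By DESeq2 1 member passed, Psca, and by limma voom 0. Without wild-type libraries 1528, 1555 and 1561, Slurp1 was at 1.32, Ly6a at 0.63, Ly6k at 0.52, Ly6e at 0.33, Lypd3 at −0.13, Ly6g6c at −0.33 and Ly6d at −0.68 on the log2 scale, none past the threshold (edgeR adjusted p from 0.793 to 0.954).

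**Figure D3:**
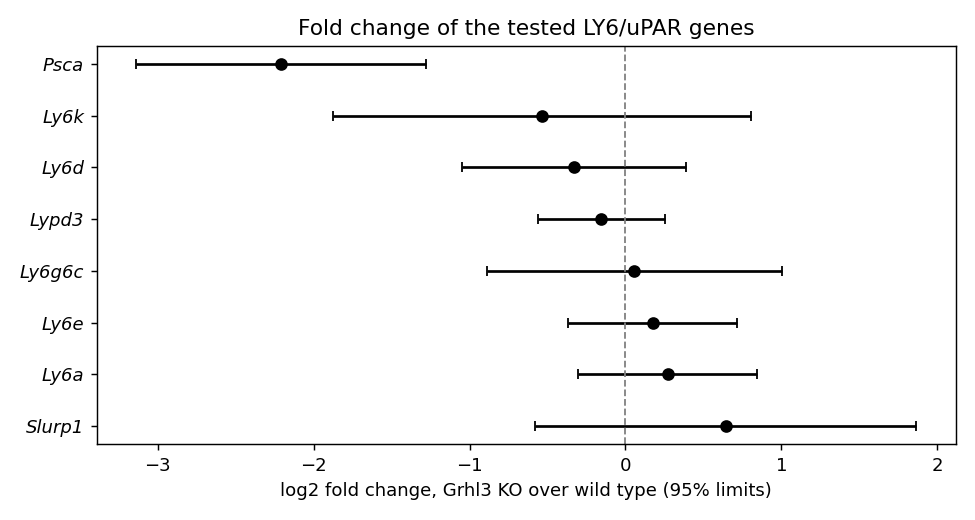
Log2 fold change, Grhl3 KO over wild type (x axis), with 95% limits from edgeR's quasi-likelihood fit, for the 8 tested genes (rows, 5 libraries per group). The limits of Psca, −3.14 to −1.28, lie below 0, and those of the other 7 genes include 0.

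Slurp1 encodes a secreted ligand of nicotinic acetylcholine receptors, and its loss in humans causes the palm and sole thickening of Mal de Meleda. It had 37.1, 22.5, 10.8, 9.77 and 31.6 CPM in the Grhl3 KO libraries 1026, 1027, 1035, 1036 and 1043, and 15.3, 2.53, 18.4, 27.0 and 8.14 CPM in the wild-type libraries 1028, 1048, 1528, 1555 and 1561. The groups overlapped, with the lowest value in wild-type library 1048. The log2 fold change was 0.64 (95% limits −0.58 to 1.87, edgeR adjusted p = 0.879), and leaving out a single library moved it to 0.38 (Grhl3 KO 1026), 0.37 (wild type 1048) or 0.9988 (wild type 1555). Exons of Slurp1 overlap those of Them6 on the opposite strand, which strand-specific counting is meant to keep apart.

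The abundant GPI-anchored keratinocyte members showed no difference beyond their spread. Ly6d had 1223, 1449, 1238, 832 and 1366 CPM in the Grhl3 KO libraries in the same order, and 2821, 1111, 1120.4, 1908 and 729 CPM in the wild-type libraries. The wild-type values enclosed all Grhl3 KO values. The log2 fold change of Ly6d was −0.33 (95% limits −1.05 to 0.39, edgeR adjusted p = 0.897), and it was 0.0019 when wild-type library 1028, which held the highest value, was left out.

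Lypd3 encodes C4.4A, a suprabasal surface protein with a pair of LY6/uPAR domains. It had 729.5, 961, 853, 916 and 1142 CPM in the Grhl3 KO libraries, and 1345, 678, 953, 1210.0 and 935 CPM in the wild-type libraries. It had the lowest coefficient of variation of the 8 in Grhl3 KO (16.5%) and over all 10 libraries (21.4%), while in wild type its 25.4% was above the 22.7% of Ly6e. Its log2 fold change was −0.15, and the 95% limits of −0.56 to 0.25 were the narrowest of the 8 (edgeR adjusted p = 0.922).

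Ly6g6c, a GPI-anchored member encoded outside the chromosome 15 group, had 303, 471, 301, 411 and 659 CPM in the Grhl3 KO libraries, and 894, 186, 467, 339 and 175 CPM in the wild-type libraries. The wild-type values again ran beyond both ends of the Grhl3 KO values. The log2 fold change was 0.06 (95% limits −0.89 to 1.002, edgeR adjusted p = 0.989). Its direction was negative without Grhl3 KO library 1043 or any of wild-type libraries 1048, 1555 and 1561, and with the mean level of glandular (−0.066) or basal epithelial genes (−0.49) as a covariate chosen after seeing the data.

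Ly6k, required for sperm function in mice and known as a cancer-testis antigen in humans, was low. It had 11.95, 10.2, 1.99, 5.08 and 11.3 CPM in the Grhl3 KO libraries, and 4.29, 6.95, 13.9, 28.9 and 4.38 CPM in the wild-type libraries. The lowest value was in Grhl3 KO library 1035 and the highest in wild-type library 1555. The log2 fold change was −0.53 (95% limits −1.87 to 0.80, edgeR adjusted p = 0.919), and it was 0.12 when wild-type library 1555 was left out and 0.52 when libraries 1528, 1555 and 1561 were. Of its longest transcript, 37.2% lies opposite an antisense gene.

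Lypd2 was at the limit of detection. The Grhl3 KO libraries held 0, 1, 0, 0 and 1 counts, and the wild-type libraries 9, 0, 2, 3 and 1 counts. A count of 0 allows up to 3 counts, or 0.0866 to 0.189 CPM in the 4 libraries concerned, and this covers counting error only. The gene was not tested and no fold is given.

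Ly6a and Ly6e are members that lymphocytes, blood progenitors or endothelium also express, and interferon induces both. Ly6a, the mouse stem cell antigen, had 362, 372, 749.7, 632 and 550.3 CPM in the Grhl3 KO libraries, and 343, 345, 612, 321 and 588 CPM in the wild-type libraries. In either group the values split into those of 321 to 372 CPM and those of 550.3 to 749.7 CPM, with Grhl3 KO libraries 1035, 1036 and 1043 and wild-type libraries 1528 and 1561 above. Ly6e, which restricts entry of several viruses, had 295, 318, 679, 537 and 354 CPM in the Grhl3 KO libraries, and 311, 385, 523, 308 and 408 CPM in the wild-type libraries. Both genes were highest in Grhl3 KO library 1035.

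The log2 fold change was 0.27 for Ly6a (95% limits −0.30 to 0.84, edgeR adjusted p = 0.895). For Ly6e it was 0.17 (95% limits −0.37 to 0.71, edgeR adjusted p = 0.942), and −0.042 without Grhl3 KO library 1035. Over all 10 libraries the pair was the 1 of 28 member pairs that passed by Pearson's r (permutation p = 0.00065, adjusted p = 0.0182), but it did not pass by Spearman's rho (permutation p = 0.00199, adjusted p = 0.0557) or with group means subtracted (exact permutation within groups, p = 0.00264, adjusted p = 0.0739). The Ly6a levels fell into separate ranges of 5 libraries each, too few to test within a range. No pooled coefficient is therefore given, only its sign, which was positive. Endothelial markers summed to 137 to 205 CPM in Grhl3 KO, against 102 to 255 CPM in wild type, with all 10 markers above 0, and 8 of 10 tested were higher and 2 lower, none past the threshold. Leukocyte markers summed to 7627 to 11233 CPM in Grhl3 KO, against 3161 to 23407 CPM in wild type, mostly from S100a8 and S100a9, which keratinocytes also make; 2 of 9 tested were higher and 7 lower, none past the threshold. Over the 10 libraries, neither gene's relation with the mean log2 CPM of the endothelial or the leukocyte list passed. By Pearson's r the permutation adjusted p was 0.766 and 0.582 for Ly6a, and 0.885 and 0.761 for Ly6e. What part these cells had in the levels of Ly6a and Ly6e was not tested.

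Interferon response genes, listed because Ly6a and Ly6e are interferon-inducible, had 17 of 20 higher and 3 lower in Grhl3 KO, with a median log2 fold change of 0.31. None passed in edgeR, DESeq2 called 1, Oasl1, and limma voom 0. In edgeR, where 7.16% of all genes had an unadjusted p under 0.05, 1 of the 20 did. Oasl1, which encodes an OAS-like antiviral protein, had the smallest p of them (15.6 CPM in Grhl3 KO against 3.22 CPM in wild type, 2.27 on the log2 scale, edgeR adjusted p = 0.146). The next were Rsad2 at 1.501 and Mx1 at 1.01 on the log2 scale, both antiviral effectors (edgeR adjusted p = 0.763 and 0.795). The list summed to 164 to 510 CPM in Grhl3 KO, against 129 to 581 CPM in wild type. Grhl3 KO libraries 1027 and 1035 held 431 and 510 CPM, and the other Grhl3 KO libraries 164 to 201. Wild-type library 1028 held 581 CPM, and the other wild-type libraries 129 to 259. Neither Ly6a nor Ly6e had a relation with the mean log2 CPM of the list that passed (Pearson's r, permutation adjusted p = 0.987 and 0.99).

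Across the 10 libraries, the level of Ly6g6c followed the mean log2 CPM of 20 suprabasal differentiation genes, among them Krt4, Krt13 and Sbsn. Pearson's r was 0.94 (permutation p = 3e-05, adjusted p = 0.00216) and Spearman's rho 0.927 (permutation p = 0.00025, adjusted p = 0.018), over 72 relations of the 8 members with 9 lists. Without the 2 libraries farthest from the median of Ly6g6c, r was 0.898. With group means subtracted it was 0.956 (exact permutation within groups, p = 0.000139, adjusted p = 0.01), and over the 7 libraries of the lower sample numbers 0.982. The series of the other 3 libraries is too small to give a value. Both measures come from the same libraries, so they share depth and tissue makeup, and these relations were computed after the members' levels had been seen.

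No other of the 72 relations passed the adjustment. That of Lypd3 with the suprabasal list had an r of 0.825 (permutation p = 0.00312, adjusted p = 0.112) and a rho of 0.818 (permutation p = 0.00534, adjusted p = 0.192), and 0.674 without the 2 farthest libraries. Psca did not follow the suprabasal list, with an r of −0.05 and a rho of −0.07 (permutation p = 0.891 and 0.864, adjusted p = 0.987 and 0.944). The suprabasal genes themselves had 1 of 20 past the threshold, the keratin gene Krt1, at 3.05 on the log2 scale (edgeR adjusted p = 0.0358). DESeq2 called Krt1 and Sbsn, and limma voom 0 of the 20. At an unadjusted p under 0.05 in edgeR, 2 of the 20 were higher and 7 lower, where 3.44% of all genes were higher and 3.72% lower. In the edgeR fit 14 of them had a lower fitted level in Grhl3 KO, with Sbsn at −1.06 and Sprr1b at −1.09 (edgeR adjusted p = 0.426 and 0.478), and the median was −0.26.

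**Figure D4:**
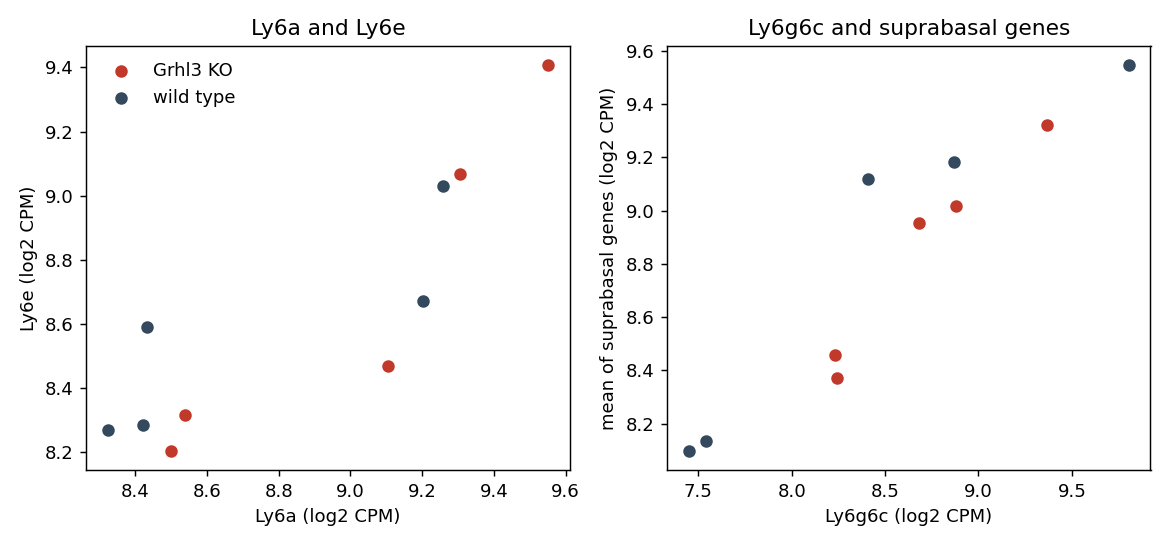
Left, Ly6a against Ly6e, and right, Ly6g6c against the mean of 20 suprabasal genes, all in log2 CPM, 1 point per library (5 Grhl3 KO, 5 wild type). Grhl3 KO and wild-type points are mixed along both patterns, and wild-type library 1028 has the highest Ly6g6c and suprabasal level.

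For each tested member, 13074 genes outside the family with a mean of at least 1 CPM were searched for the 1 whose log2 CPM was most like it over the 10 libraries after subtraction of group means. As a description, the likeness (Pearson's r, chosen as the highest of all genes) was 0.985 for Lypd3 with Uqcr10, a subunit of the respiratory chain. It was 0.983 for Ly6d with Ndufa6, another respiratory chain gene, 0.983 for Ly6g6c with Tmem62, and 0.979 for Ly6a with Ran, a nuclear transport GTPase. For Psca, Ly6k, Ly6e and Slurp1 the closest genes were Zfp654, Fam162a, Clptm1l and Mafk, with values of 0.928 to 0.95. Psca had 5 genes above 0.9 and Ly6g6c 87.

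Among 6 other tested genes within the chromosome 15 interval, 2 had a higher and 4 a lower fitted level in Grhl3 KO, and 0 passed in edgeR. The median log2 fold change was −0.19. Them6, which lies between Psca and Slurp1, was at −0.15 (9.90 CPM in Grhl3 KO, 11.01 CPM in wild type), and Lynx1, a GPI-anchored modulator of nicotinic receptors, at 0.11 (edgeR adjusted p = 0.951 and 0.942). Where 7.16% of all genes had an unadjusted p under 0.05, 1 of the 6 did, 2010109I03Rik, a gene named after its values were seen. Its mean was 146 CPM in Grhl3 KO against 45.2 CPM in wild type, 1.69 on the log2 scale (edgeR unadjusted p = 0.00381, adjusted p = 0.411).

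Other genes of the LY6/uPAR domain family were listed to the number of 38, of which 28 were in the table under the listed symbol and 14 tested. A family gene entered there under another symbol would not have been matched. Of these 14, 7 had a higher and 7 a lower fitted level, with a median log2 fold change of 0.01. In edgeR 0 passed. Where 7.16% of all genes had an unadjusted p under 0.05, 1 of the 14 did. That gene, Lypd5, had 15.7, 22.8, 18.4, 31.0 and 43.6 CPM in the Grhl3 KO libraries, and 68.1, 16.4, 49.9, 52.4 and 43.9 CPM in the wild-type libraries. All wild-type values but that of library 1048 lay above the Grhl3 KO values. Its log2 fold change was −0.81 (SE 0.36, edgeR adjusted p = 0.695).

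Pinlyp, which encodes a phospholipase inhibitor with a LY6/PLAUR domain, was at −0.49 and Lypd6 at −0.47 on the log2 scale (edgeR adjusted p = 0.792 and 0.824). Plaur, the urokinase receptor that gives the family part of its name, averaged 18.6 CPM in Grhl3 KO against 16.1 CPM in wild type. Ly6c1, a marker of endothelium and monocytes, stood at 42.0, 41.1, 188, 96.7 and 102 CPM in the Grhl3 KO libraries, and 34.7, 36.8, 59.7, 34.7 and 142 CPM in the wild-type libraries. Plaur and Ly6c1 were named after their values were seen.

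Genes that act with the family were described from 3 lists, none of whose members DESeq2 or limma voom called either; the same held for the 14 other family genes. Of 16 nicotinic receptor subunits, the receptors of SLURP and LYNX proteins, 4 were tested and 0 passed in edgeR, with 0 at an unadjusted p under 0.05. Chrnb1 was at 0.22, Chrnb2 at −0.13 and Chrnd at 0.17 on the log2 scale (edgeR adjusted p = 0.920, 0.974 and 0.980).

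Of 25 tested genes of GPI anchor synthesis and attachment, 19 had a higher and 6 a lower fitted level in Grhl3 KO, with a median of 0.05. None passed in edgeR, and 4 were under 0.05 before adjustment, all of them higher (3.44% of all genes). Piga, of the first step of anchor synthesis, averaged 68.4 CPM in Grhl3 KO against 47.9 CPM in wild type, 0.52 on the log2 scale (edgeR adjusted p = 0.428). Gpaa1 and Pigt, subunits of the transamidase that attaches the anchor, were at 0.31 and 0.25 (edgeR adjusted p = 0.428 and 0.478).

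Of 9 tested ligands and partners of LYPD3 and the urokinase receptor, 1 had a higher and 8 a lower fitted level. Of all genes 50.3% had a lower one. The median log2 fold change of the 9 was −0.35. Itgb4 and Itga6 are also counted in the basal squamous list below. None of the 9 passed in edgeR and 0 had an unadjusted p under 0.05. The laminin-332 chain genes Lamb3 and Lama3 were at −0.78 and −0.74 and the integrin gene Itgb4 at −0.54 (edgeR adjusted p = 0.813, 0.816 and 0.821).

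Of the markers of other tissue parts 0 passed in edgeR, DESeq2 or limma voom. In edgeR 2 had an unadjusted p under 0.05, Pdpn and the smooth muscle gene Smtn, where 7.16% of all genes did. Basal squamous genes had 1 of 10 higher and 9 lower, the 3 of smallest p being Pdpn at −1.44, Sox2 at −0.27 and Trp63 at −0.18 on the log2 scale, and all 10 pan-epithelial genes had a lower fitted level, with Cdh1 at −0.27, Grhl2 at −0.12 and Esrp1 at −0.19. Skeletal muscle genes summed to 823 to 6029 CPM in Grhl3 KO, against 1393 to 3051 CPM in wild type, with 13 of 13 tested higher and a median of 0.61. Smooth muscle genes had 2 of 10 higher, fibroblast genes 8 of 10. Glandular markers summed to 4.65 to 10.8 CPM in Grhl3 KO, against 4.63 to 17.7 CPM in wild type, and 8 of 10 averaged under 1 CPM. The relations of the members with these lists, the glandular one aside, were among those described above, and none passed. Closest to the threshold was Lypd3 with the basal list when group means were subtracted (r = −0.897, exact permutation within groups, p = 0.00174, adjusted p = 0.0625). Without that subtraction its r was −0.585 (permutation adjusted p = 0.388). What part these tissues had in the member levels was not tested.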

How the data were processed

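RNA from 10 samples of mouse oesophagus was sequenced by the submitters with a stranded poly(A) kit, per the labels' protocols. The deposited table holds raw counts per protein-coding gene, made by the authors with featureCounts against GRCm38, per the submitters' processing notes. The aligner, counter version and annotation release were not given in the sources used here. Columns were joined to samples by sample number. Totals ran from 15.3 to 32.9 M counts.

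Genes were kept with filterByExpr (minimum count 10, minimum total 15), which left 13731, and tested with edgeR 4.0.16 (TMM, robust quasi-likelihood F-test, Benjamini-Hochberg over all genes, threshold 0.05) in R 4.3.3. Log2 fold changes are Grhl3 KO over wild type. A prior count of 2 was added for log2 CPM. Positions and exon lengths come from GENCODE M21 (GRCm38), where 21919 of 22740 identifiers were found. Shared transcript stretches of at least 75 bases and 95% identity were sought with blastn 2.17.0. Relations used 100000 permutations. Alternatives were DESeq2 1.42.0, limma 3.58.1 voom, other scalings and filters, left-out libraries and covariates, of which the glandular and basal levels were added after seeing the data. The edgeR, DESeq2 and voom fits and the permutation tests were tested on simulated data.

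The members and lists were chosen with earlier results of these data known. Named genes are the 9 members, up to 3 genes of smallest p per list and the gene most like each member; a few named for the abundance of their list or their role are keratins, S100a8, S100a9 and Them6. Lists of Y-linked genes served only to describe libraries. The labels do not state separate litters or days, so p-values measure the spread between these 10 samples.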

Additional observations from a re-analysis of the deposited data

Results flagged for a closer look

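Among 16 groups of 5 libraries (8 tested genes, 2 genotypes), 1 held a library far from the others: Psca in Grhl3 KO library 1027, at 32.1 CPM, where the other 4 Grhl3 KO libraries had 14.2 to 17.4 CPM. The gap to the next library was 0.823 of the group's range. Chance marks about 1 in 20 such groups. Without this library the log2 fold change of Psca was −2.49 (edgeR adjusted p = 0.179).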

How the results depend on the processing

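Psca kept its direction under every alternative tried. DESeq2 was the 1 setting under which a member passed (1 of 8, against 0 in edgeR, limma voom and all other settings). The number of all genes past the threshold, 11 in edgeR, was 119 with DESeq2, 1 with limma voom, 7 with no filter on low counts, 18 and 49 with the pan-epithelial and the suprabasal level as covariate, and 1 either without wild-type libraries 1528, 1555 and 1561 or with the number series as a covariate. With covariates chosen after seeing the data it was 1 for the glandular level, which rests on 2 tested genes, and 8 for the basal level. With 1 library left out at a time it ran from 1 to 16; it was 1 without Grhl3 KO 1027, 1036 or 1043 or wild type 1528, 2 without wild type 1555, 3 without Grhl3 KO 1035 and 7 without wild type 1561. The number of member pairs with a called correlation was 1 of 28 and 0 with group means subtracted.

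Directions turned for some uncalled members. Ly6k was at 0.52 and Ly6g6c at −0.33 both without wild-type libraries 1528, 1555 and 1561 and with the number series as a covariate. With the pan-epithelial level as a covariate Ly6d was at 0.024 and Ly6k at 0.010, and Ly6g6c was at −0.066 with the glandular and −0.49 with the basal level, 2 covariates chosen after seeing the data. With 1 library left out, Slurp1 ran from 0.37 to 0.9988, Ly6a from 0.12 to 0.42 and Lypd3 from −0.27 to −0.04, none of which turned, whereas Ly6d ran from −0.51 to 0.0019, Ly6e from −0.042 to 0.31, Ly6k from −0.75 to 0.12 and Ly6g6c from −0.15 to 0.55. The cause was not tested. Scaling did not turn any member and moved the median of all genes by less than 0.1. Low counts limit Lypd2, and the SE of Ly6k and Slurp1 (0.61 and 0.56) limits what 5 libraries per group can show. No paired analysis was possible because the groups share no sample numbers.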
